A study of Mus musculus with 16 samples.

Results

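The 52 genes described here code for proteins of ribosome biogenesis, and they were followed through antigen activation and glucocorticoid treatment of mouse bone marrow derived mast cells (BMMCs). They were chosen by name because they had been seen at lower levels in BMMCs from PEP-/- mice than from PEP+/+ mice in these same samples, so the difference between genotypes chose the genes and is given only as a description. They are 52 of the 39179 genes in the count tables, and all 52 passed the filter on low counts that left 13305 genes for testing. PEP is the PEST-domain-enriched tyrosine phosphatase, the product of Ptpn22, which is best known as a brake on antigen receptor signalling in lymphocytes.

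BMMCs of PEP+/+ and PEP-/- male C57BL/6 mice were grown from bone marrow for 4 weeks and sequenced in 16 samples, with 2 replicates for each genotype and treatment. All groups were sensitized with immunoglobulin E (IgE, 0.05 µg/ml in the labels, 3 h). The treatments were IgE alone, IgE with the antigen dinitrophenol (DNP, 200 ng/ml, 1 h), IgE with dexamethasone (DEX, 1e-07 M, 8 h), and IgE with both DNP and DEX. According to the methods text, DNP was given as a conjugate with bovine serum albumin. The labels number 1 replicate of each group with a digit (replicate 1) and the other with a letter (replicate 2), and do not say whether they came from separate mice or cultures, while the methods text speaks of biological replicates and gives another IgE dose. P-values measure the spread between these samples. All cultures held stem cell factor and interleukin 3, and a cultured BMMC is a model of a mast cell that has not matured in tissue.

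Ribosome biogenesis starts in the nucleolus, where RNA polymerase I transcribes a long ribosomal RNA precursor. Small nucleolar ribonucleoproteins (snoRNPs) modify this precursor, the box C/D class by methylation and the box H/ACA class by pseudouridylation, while the small subunit processome, built from subcomplexes such as UTP-A and UTP-B around the U3 snoRNP, folds and cuts the part that becomes the small subunit. Other factors assemble the large subunit and carry both subunits to the cytoplasm. The genes of this programme are well known targets of the transcription factor MYC and rise when cells grow. In mast cells, antigen that cross-links IgE on the high-affinity receptor triggers degranulation and cytokine transcription, which glucocorticoids dampen.

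The letters CACGTG are the E-box form that MYC with MAX binds. Windows from 250 bases before to 50 bases after a RefSeq start site (GRCm38.p6) were available for 45 of the 52 genes, in 49 windows. CACGTG, which reads the same on both strands, was found in 13 of 49 windows (26.5%), against 7.15% of all 32851 windows of this length. The letters CCGGAAG or their reverse CTTCCGG, the core bound by ETS factors, were in 36.7% of the windows against 8.86% of all windows. TATAAA or TTTATA was in 4.08% against 13.6%, and AGAACA or TGTTCT, part of the element that the glucocorticoid receptor binds, in 14.3% against 19.0%. These are matches of letters, the 4 motifs were picked with results known, and no binding was measured. The stretches below are examples from genes described later, and other genes with an E-box are not shown. Each runs 5′ to 3′ on the gene's strand with the E-box in capitals.
Utp4: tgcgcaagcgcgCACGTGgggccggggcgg
Ltv1: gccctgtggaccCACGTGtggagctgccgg
Grwd1: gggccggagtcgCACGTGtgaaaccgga
Utp20: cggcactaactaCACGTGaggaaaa
Mybbp1a: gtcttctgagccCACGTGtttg
Rrn3: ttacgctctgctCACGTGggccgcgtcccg
The Utp4 stretch is at chr8:106893643-106893672 on the plus strand, with the E-box beginning at base 16 of the transcript, and that of Ltv1 is at chr10:13193092-13193121 on the minus strand, beginning at base 29. The Grwd1 stretch is at chr7:45830740-45830767 on the minus strand, beginning at base 35. The Utp20 stretch is at chr10:88826765-88826789 on the minus strand, beginning at base 38, and that of Mybbp1a is at chr11:72441355-72441376 on the plus strand, beginning at base 41. In these 5 genes the letters lie after the start, in the transcribed part. The Rrn3 stretch is at chr16:13780639-13780668 on the plus strand, with the E-box beginning -48 bases from the start, in the promoter. Another CACGTG of Rrn3, not shown, begins -215 bases from the start.

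Libraries held 8612531 to 22143526 reads on genes (median 12814044), and each of the 52 genes had between 51 and 12596 reads in every sample. Ptpn22 was at 11.3 to 174.8 CPM, read counts scaled for library size, in PEP+/+ and at 0 to 3.03 CPM in PEP-/-, and the DEX targets Tsc22d3 and Fkbp5 rose with DEX in the absence of antigen by 3.13 ± 0.18 and 3.26 ± 0.23 on the log2 scale (SE, adjusted p = 1.64e-06 and 4.98e-06). Tnf and Il13, cytokines of activated mast cells, rose with antigen by 7.99 ± 0.27 and 6.70 ± 0.34 (adjusted p = 4.66e-08 and 3.66e-07). The 9 mast cell markers summed to 63190 to 72280 CPM after IgE and to 80610 to 103700 CPM after IgE DNP DEX, while the B and T cell markers summed to at most 0.605 CPM, the neutrophil markers to at most 2.28 CPM and the macrophage markers to at most 8.42 CPM. Basophil markers summed to 19.8 to 122.1 CPM, the eosinophil markers to at most 8.06 CPM with Epx at 0 in all samples, and the erythroid markers to 0.11 to 0.72 CPM without DEX and 0.407 to 6.38 CPM with DEX; their part in the results was not tested. In bulk RNA, fewer cells of a type and less RNA per cell cannot be told apart.

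The library PEP+/+ IgE DNP DEX replicate 1 stood apart. It was the smallest, with 8612531 reads on genes, and its cytosolic ribosomal protein genes had a median level of 0.66 on the log2 scale relative to each gene's mean, against -0.53 to 0.51 in the other 15 samples. The deviations of replicates from their group means correlated at 0.453 to 0.554 between its group and the others, and at 0.651 to 0.799 among the others. For the ribosome biogenesis genes described here and the ribosomal protein genes, several results that use its group are also given without it. Results for the other gene lists and the ratios between genotypes after IgE DNP DEX are given only with it. Its part in the results was otherwise not tested.

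Results are given from both of the fits made, without and with a term for the replicate set. A gene was called where its adjusted p was under 0.05 in edgeR's quasi-likelihood test. In the fit without a block, all 16 samples shared 1 estimate of the spread. In the fit with the replicate block, numbered and lettered samples had a term of their own, which lowered the biological coefficient of variation from 0.312 to 0.133. Each response is the mean of both genotypes unless said otherwise.

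Level by role, the most abundant transcripts were those of the nucleolar proteins. Ncl, nucleolin, was at 546.9 CPM on average and Npm1, nucleophosmin, at 395.0 CPM. In the other roles the gene with the highest mean was Mybbp1a among the RNA polymerase I genes (90.8 CPM), Pes1 among the large subunit factors (74.0 CPM), Fbl among the box C/D proteins (69.0 CPM), Nob1 among the other small subunit factors (55.0 CPM), Nhp2 among the box H/ACA proteins (54.7 CPM) and Heatr1 in UTP-A and UTP-B (46.1 CPM). CPM is not corrected for transcript length, so these are shares of reads and not a ranking of molecules.

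**Figure D1:**
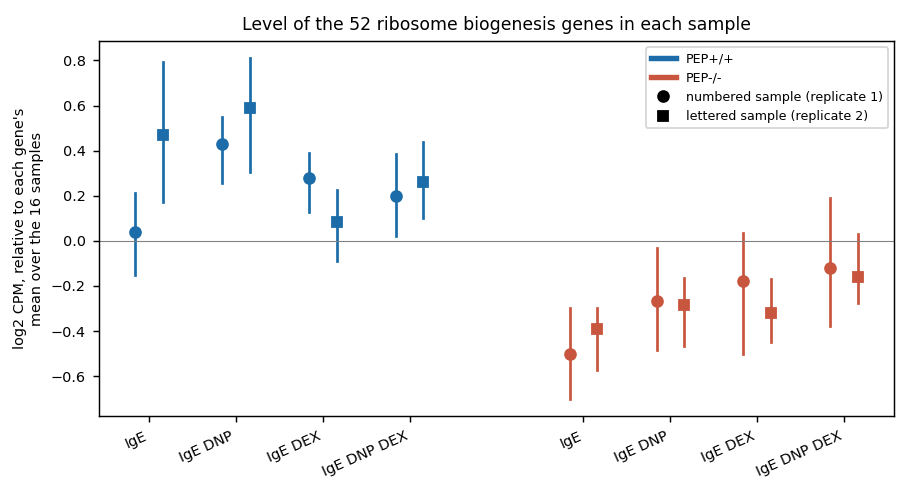
Median level of the 52 genes in each of the 16 samples (log2 CPM relative to each gene's own mean, points) with the range from the lower to the upper quartile of the genes (bars), by genotype and treatment. PEP+/+ samples lie between 0.04 and 0.59 and PEP-/- samples between -0.50 and -0.12, a difference that chose the genes, and the 2 PEP+/+ IgE samples lie apart at 0.04 and 0.47.

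Most of the 52 genes had a positive antigen response when DEX was absent, but only a minority were called. Over the 52 genes the median log2 fold change of IgE DNP against IgE was 0.16, with 41 positive and 11 negative, beside a median of 0.00 over all genes tested. 3 genes were called higher and 0 lower, where 9.07% of all tested genes were called higher and 7.58% lower. With the replicate block 13 were called higher and 0 lower, beside 18.6% and 19.3% of all genes. The genes that passed came from every role but RNA polymerase I and box H/ACA.

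The gene with the largest antigen response was Rrp12, which acts in the export and maturation of both subunits. In PEP+/+ cells it stood at 20.9 and 34.2 CPM after IgE and at 35.0 and 48.4 CPM after IgE DNP. In PEP-/- cells it went from 11.65 and 10.95 CPM to 25.8 and 20.8 CPM. All 4 samples with antigen lay above the sample of the same genotype and replicate without it, while the ranges over both genotypes overlapped. The log2 fold change was 0.82 ± 0.20 (SE, adjusted p = 0.0158 by edgeR). Utp4, a UTP-A subunit, rose by 0.56 ± 0.17 (adjusted p = 0.0466) and Wdr36, a UTP-B subunit, by 0.46 ± 0.14 (adjusted p = 0.0467). Both calls were lost by edgeR without the filter on low counts (adjusted p = 0.125 and 0.221) and in 13 and 14 of the 16 fits that left out 1 sample.

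With the block, the box C/D core proteins Nop58 and Fbl also rose. Nop58 was at 76.5 and 88.6 CPM after IgE and 145.2 and 111.8 CPM after IgE DNP in PEP+/+, and at 40.2 and 32.8 CPM against 71.6 and 51.6 CPM in PEP-/-. Its log2 fold change was 0.70 ± 0.22 (adjusted p = 0.0544), and the block gave 0.67 (adjusted p = 0.00115). Fbl, the methyltransferase of these particles, had 0.40 with the block (adjusted p = 0.0116). Nop56, the third core protein, had 0.14 ± 0.30 without the block and was called in neither fit.

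The rest of the 13 came from several roles. They were Heatr1 (UTP-A) at 0.57, the small subunit factors Noc4l at 0.39 and Ltv1 at 0.37, the large subunit factors Rrp1b at 0.76, Grwd1 at 0.59 and Noc2l at 0.29, and the nucleolar proteins Ddx21, an RNA helicase, at 0.64 and Nolc1, a snoRNP chaperone, at 0.51, all on the log2 scale with the block. Their adjusted p ran from 0.00153 for Ddx21 to 0.0321 for Noc2l. Of the 16 fits that left out 1 sample, the call was lost in 7 for Noc2l, 4 for Noc4l, 3 for Nolc1, 2 each for Fbl and Heatr1 and 1 each for Utp4 and Grwd1. An E-box was found in the window of 3 of them, Utp4, Ltv1 and Grwd1. 10 of the 13 had a window (Rrp12, Fbl and Wdr36 had none), and of the 35 other genes with a window 10 held an E-box.

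None of the 4 RNA polymerase I genes in the list was called for antigen without DEX. Their median was -0.15. Polr1b, a core subunit, had the lowest value of the list at -0.28 ± 0.24, followed by Pwp2 (UTP-B) at -0.26 ± 0.19 and Wdr12, which joins Pes1 and Bop1 in large subunit assembly, at -0.20 ± 0.18. All 3 missed the threshold in both fits. The medians of the other roles lay between 0.15 and 0.27.

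The antigen rise differed in extent between the replicate sets. Among numbered samples the median over the 52 genes was 0.35 in PEP+/+ with 52 of 52 positive, and 0.22 in PEP-/- with 40 positive. Among lettered samples it was 0.08 in PEP+/+ with 33 positive and 0.15 in PEP-/- with 33 positive. Across the 4 pairs of the same genotype and set, 27 of the 52 genes were higher with antigen in all 4 and 0 were lower in all 4, beside 29.8% and 30.1% of all genes tested.

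**Figure D2:**
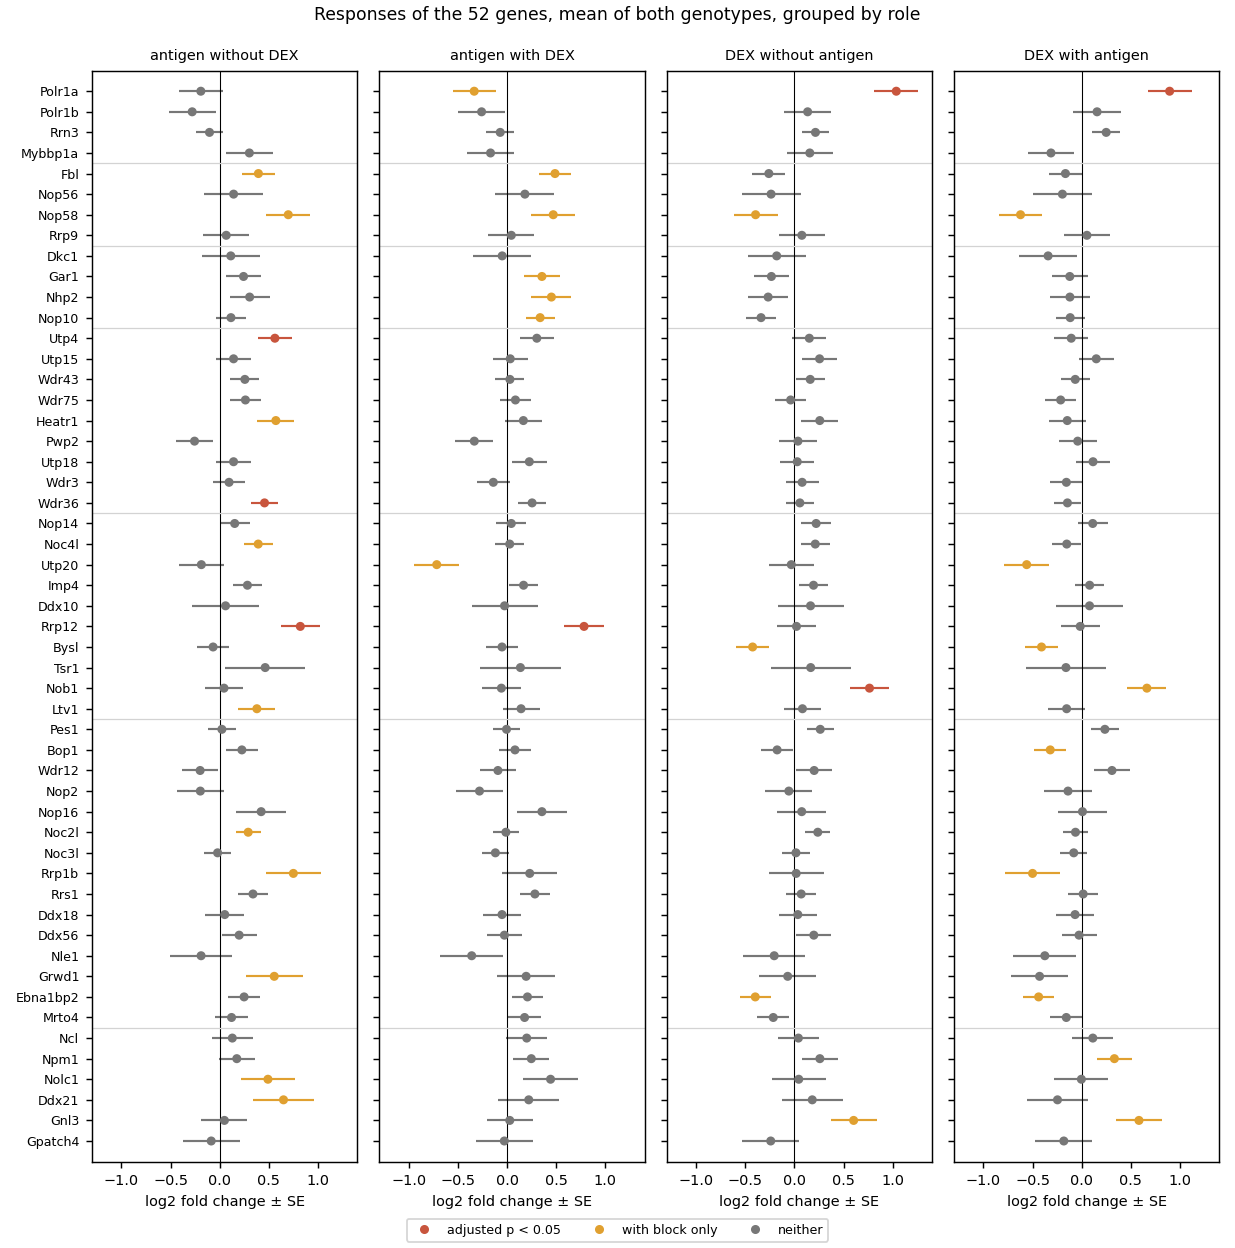
Log2 fold change with its SE (bars) for each of the 52 genes, in the fit without the block and as the mean of both genotypes, for the antigen response without and with DEX and the DEX response without and with antigen. Grey lines part the 7 roles from RNA polymerase I at the top to other nucleolar proteins at the bottom. Red points passed an adjusted p of 0.05 and yellow points passed it with the replicate block only, and Rrp12 is red in both antigen panels and Polr1a in both DEX panels.

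When DEX was present, the antigen response of the list was smaller in number of calls. The median of IgE DNP DEX against IgE DEX was 0.06, with 32 positive and 20 negative, beside -0.02 over all genes. Only Rrp12 was called higher and 0 were called lower, where 7.19% and 5.42% of all genes were called. With the block 6 were called higher and 2 lower, beside 18.4% and 19.2%. Without PEP+/+ IgE DNP DEX replicate 1 the median was 0.12 with 38 positive.

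Rrp12 rose by 0.78 ± 0.20 with DEX present (adjusted p = 0.0256). In PEP+/+ it was at 23.9 and 22.0 CPM with DEX alone and 28.0 and 41.2 CPM once antigen was added. In PEP-/- the values were 14.8 and 13.0 CPM against 30.5 and 24.1 CPM. The 4 samples with antigen, from 24.1 CPM up, did not overlap the 4 without, at 23.9 CPM and below. Rrp12 and Utp20 were the genes of the list separated in this way, 2 of 52, where 19.4% of all genes tested were.

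Apart from Rrp12, the genes called higher with the block were snoRNP proteins, in a list with 11.5% called higher beside 18.4% of all genes. Fbl had 0.48 and Nop58 0.49 among box C/D proteins, and Gar1, Nhp2 and Nop10, which hold the pseudouridine synthase Dkc1 in the H/ACA particle, had 0.36, 0.45 and 0.34 (adjusted p = 0.00426, 0.0122, 0.049, 0.0227 and 0.0464). Of 16 fits that left out 1 sample, the call was lost in 11 for Nop10, 8 for Gar1, 5 for Nhp2 and 2 for Nop58, and in 0 for Fbl. Dkc1 itself had -0.05 ± 0.30 without the block and was called in neither fit.

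Utp20 and Polr1a were called lower with antigen in DEX-treated cells, both with the block only. Utp20, a large scaffold protein of small subunit processing, was at 22.9 and 22.6 CPM with DEX alone and 7.81 and 16.6 CPM with antigen and DEX in PEP+/+. In PEP-/- it was at 17.1 and 17.6 CPM against 14.2 and 9.42 CPM. The log2 fold change was -0.70 with the block (adjusted p = 0.0127), and -0.72 ± 0.23 in the other fit (adjusted p = 0.0652). Polr1a had -0.35 with the block (adjusted p = 0.0432), a call lost in 10 of the 16 fits that left out 1 sample, against 1 for Utp20. Nle1, a large subunit factor, had -0.36 ± 0.32 and passed in neither fit.

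Dexamethasone without antigen moved few of the genes. The median of IgE DEX against IgE was 0.06, with 35 positive and 17 negative, beside 0.00 over all genes. 2 genes were called higher and 0 lower, beside 5.4% and 3.98% of all genes. With the block 3 were called higher and 3 lower, beside 12.9% and 13.8%. The sign of the median turned with the replicate set, at 0.34 among numbered samples and -0.13 among lettered samples.

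Polr1a, the largest subunit of RNA polymerase I, had the highest DEX response of the list. It was at 25.1 and 44.2 CPM after IgE and 63.1 and 65.9 CPM after IgE DEX in PEP+/+ cells. In PEP-/- cells it was at 16.5 and 23.4 CPM after IgE and 42.8 and 47.5 CPM after IgE DEX. Each DEX sample was above both IgE samples of its genotype. The log2 fold change was 1.04 ± 0.22 (adjusted p = 0.0121), while the block gave 1.07 (adjusted p = 2.28e-05). The other 3 genes of the RNA polymerase I group, Polr1b, Rrn3 and Mybbp1a, had 0.13 to 0.21 and passed in neither fit.

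Nob1, the endonuclease that makes the last cut of the small subunit RNA, followed. It was at 36.7 and 56.9 CPM after IgE and 75.7 and 60.5 CPM after IgE DEX in PEP+/+, and at 35.3 and 35.0 CPM against 80.6 and 58.6 CPM in PEP-/-. The 4 samples with DEX, from 58.6 CPM up, did not overlap the 4 without. This held for 1 of the 52 genes and for 15.6% of all genes tested. It rose by 0.76 ± 0.20 (adjusted p = 0.033). Gnl3, the nucleolar GTPase nucleostemin, had 0.60 ± 0.23 (adjusted p = 0.163), and rose by 0.64 once the block was added (adjusted p = 0.000489).

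The 3 genes called lower with the block were Nop58, Bysl and Ebna1bp2. Bysl, a late small subunit factor, had -0.42 (adjusted p = 0.0423), Ebna1bp2, a large subunit factor, -0.38 (adjusted p = 0.0193) and Nop58 -0.43 (adjusted p = 0.0293). These calls were lost in 6, 5 and 6 of the 16 fits that left out 1 sample. All 4 box H/ACA proteins were negative, with a median of -0.25 and none called, and the box C/D group had a median of -0.25.

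With antigen present, Polr1a, Nob1 and Gnl3 again had the 3 highest DEX responses of the list. The median of IgE DNP DEX against IgE DNP was -0.11, with 17 positive and 35 negative, beside -0.01 over all genes. 1 gene was called higher and 0 lower, beside 5.67% and 4.99% of all genes. With the block 4 were called higher and 6 lower, beside 15.9% and 17.4%. Without PEP+/+ IgE DNP DEX replicate 1 the median was -0.05 with 22 positive. This comparison shares its IgE DNP DEX samples with the antigen response under DEX, and its IgE DNP samples, here the controls, with the antigen response without DEX.

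Polr1a rose by 0.89 ± 0.22 (adjusted p = 0.0257). Its level went from 29.5 and 36.1 CPM to 33.3 and 57.5 CPM in PEP+/+ and from 14.2 and 18.1 CPM to 38.7 and 41.8 CPM in PEP-/-, so the groups overlapped in PEP+/+ only. Nob1 had 0.66 ± 0.20 (adjusted p = 0.056), and passed at 0.66 once the block was added (adjusted p = 0.00956). With the block Gnl3 rose by 0.59 (adjusted p = 0.000931), and Npm1 had 0.31 (adjusted p = 0.0382), a call lost in 10 of the 16 fits that left out 1 sample.

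Genes called lower with the block came from both subunit pathways. Nop58 had -0.62 (adjusted p = 0.00284) and went from 145.2 and 111.8 CPM to 72.8 and 63.4 CPM in PEP+/+, and from 71.6 and 51.6 CPM to 59.4 and 38.5 CPM in PEP-/-. Utp20 had -0.54, Rrp1b -0.51, Ebna1bp2 -0.44, Bysl -0.40 and Bop1 -0.33, with adjusted p from 0.00835 for Ebna1bp2 to 0.0498 for Utp20. None of the 6 passed without the block, where the lowest adjusted p among them was 0.107. With the block, the call was lost in 13 of the 16 fits that left out 1 sample for Utp20, 11 for Bysl, 9 for Rrp1b and 5 for Bop1, and in 0 for Nop58 and Ebna1bp2.

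**Figure D3:**
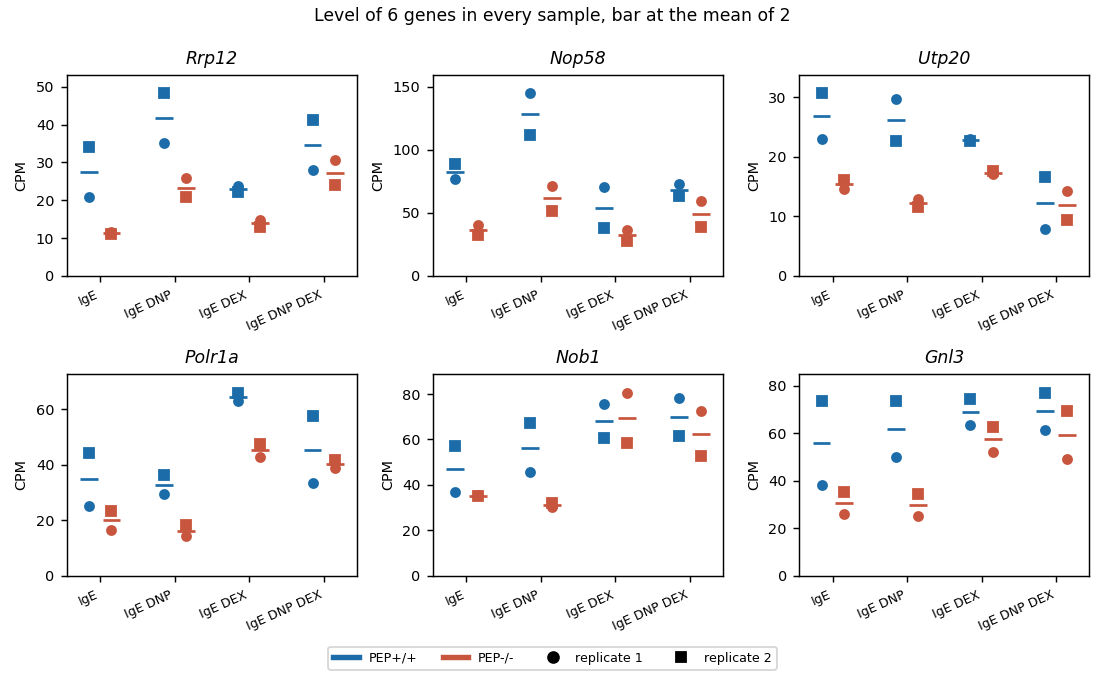
CPM of 6 genes in every sample (circles, replicate 1, and squares, replicate 2) with the mean of the 2 (bars) for PEP+/+ in blue and PEP-/- in red, on axes that start at 0. Rrp12 and Nop58 are higher with DNP than without it in each genotype, Utp20 is lowest after IgE DNP DEX with 7.81 CPM in PEP+/+ replicate 1, and the means of Polr1a, Nob1 and Gnl3 are higher with DEX, with PEP+/+ replicate 2 of Nob1 an exception when antigen is present (67.2 CPM without and 61.7 CPM with DEX).

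None of the 52 genes had an antigen response that differed with DEX beyond the threshold. The interaction of antigen and DEX had a median of -0.10 over the list, with 14 positive and 38 negative. 0 of 52 were called by edgeR in either fit, beside 0.331% of all genes without the block and 1.57% with it, and 0 and 4 of the 52 had an unadjusted p under 0.05. The lowest values were those of Utp20 at -0.53, Rrp1b at -0.52 and Mybbp1a at -0.47, and the highest were the H/ACA proteins Nop10 at 0.22, Nhp2 at 0.15 and Gar1 at 0.11. Leaving out PEP+/+ IgE DNP DEX replicate 2 in the fit with the block gave 5 genes called lower, Mybbp1a, Heatr1, Utp20, Rrp1b and Ddx21, among 1879 genes called in all. Without replicate 1 of that group the median was -0.07 and 0 of the 52 were called in either fit.

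The median DEX response of the list had opposite signs in the genotypes when antigen was present, a difference that no gene passed when tested on its own. The median of IgE DNP DEX against IgE DNP was -0.31 in PEP+/+, with 43 of 52 genes negative, and 0.13 in PEP-/-, with 38 positive. Both replicate sets gave this, at -0.27 and -0.27 in PEP+/+ and 0.13 and 0.12 in PEP-/- for numbered and lettered samples. 16 of the 52 genes were lower in both PEP+/+ pairs and higher in both PEP-/- pairs, and 0 showed the reverse. These genotype differences are changes in the gap that chose the genes, so they are given as a description and not set against all genes. The 16 were Polr1b and Mybbp1a, Fbl and Rrp9, Dkc1, the UTP subunits Utp4, Wdr43, Wdr75 and Pwp2, Rrp12, and the large subunit factors Nop2, Noc2l, Noc3l, Ddx56 and Mrto4, with Nolc1. Some of the rises in PEP-/- were close to 0. The smaller log2 difference was 0.000221 for Mybbp1a, 0.00128 for Noc2l, 0.00596 for Dkc1 and 0.0065 for Mrto4, while Rrp9 had 0.32 and 0.54.

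Without PEP+/+ IgE DNP DEX replicate 1, in the fit with the block, the median DEX response with antigen was -0.17 in PEP+/+ and 0.12 in PEP-/-.

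Within PEP+/+ cells, 9 genes were called lower and 0 higher with the block, beside 9.76% and 9.11% of all genes. The choice of genes used these same samples. If it leaned on the samples without DEX, it favoured falls in PEP+/+ and rises in PEP-/-, so calls within a genotype are only a description. Utp20 had -1.06, from 29.6 and 22.6 CPM with antigen alone to 7.81 and 16.6 CPM with both, with an adjusted p of 0.0176. Rrp1b had -0.94, Nop58 -0.90, Dkc1 -0.77, Mybbp1a -0.71, Grwd1 -0.70, Wdr75 -0.59, Ebna1bp2 -0.54 and Bop1 -0.47, with adjusted p up to 0.0414. The log2 difference for Utp20 was -1.90 between the replicate 1 samples and -0.44 between the replicate 2 samples, and for Rrp1b it was -1.41 and -0.66. Without PEP+/+ IgE DNP DEX replicate 1, 3 genes were called lower, and of the 9 only Nop58 and Ebna1bp2 were among them (adjusted p = 0.0322 and 0.0104). Without PEP+/+ IgE DNP replicate 1, 1 gene was called lower, and Nop58 alone kept its call in all 16 fits that left out 1 sample. Without the block none of the 52 was called in PEP+/+.

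Calls within PEP-/- cells have the same limit from the choice of genes and are only a description. With the block, 5 genes were called higher and 0 lower there, beside 8.76% and 9.33% of all genes. They were Polr1a at 1.33, Nob1 at 1.01, Gnl3 at 0.99, Rrn3, the factor that recruits RNA polymerase I to its promoter, at 0.60, and Npm1 at 0.52. Gnl3 went from 25.02 and 34.3 CPM to 49.2 and 69.2 CPM in PEP-/- and from 49.8 and 73.5 CPM to 61.5 and 77.0 CPM in PEP+/+. Polr1a was the only one called without the block, at 1.32 ± 0.32 (adjusted p = 0.0486). With the block, Polr1a and Gnl3 kept their calls in all 16 fits that left out 1 sample, and 2 genes were called without PEP-/- IgE DNP DEX replicate 1.

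**Figure D4:**
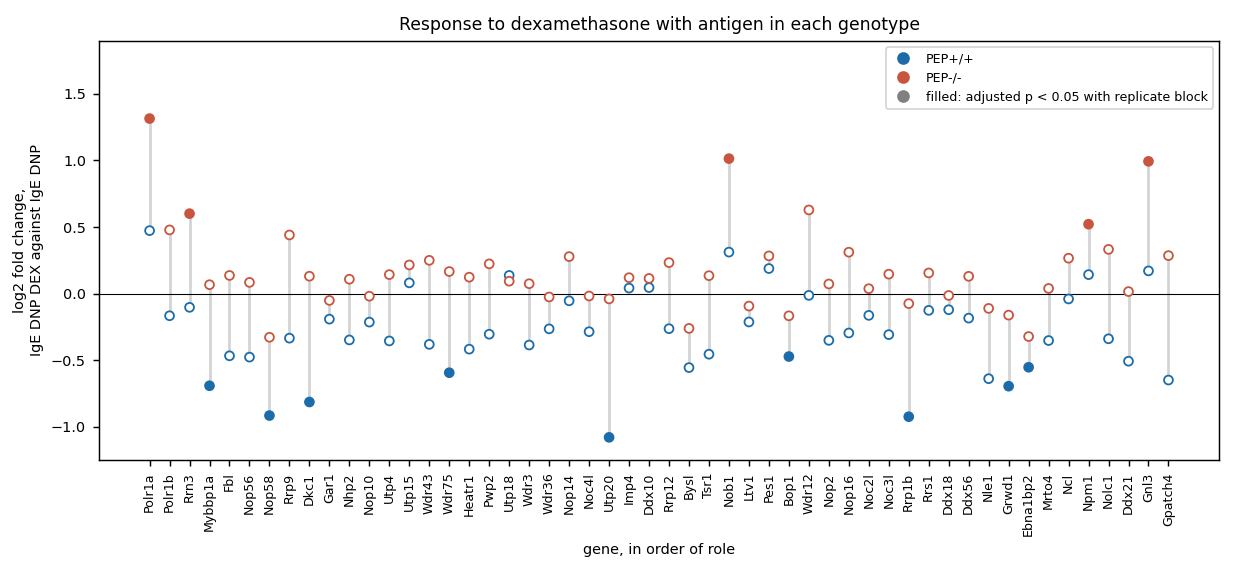
Log2 fold change of IgE DNP DEX against IgE DNP for each gene in PEP+/+ (blue) and PEP-/- (red), from the fit without the block and joined by a grey line, in order of role. Filled points passed an adjusted p of 0.05 with the replicate block, 9 in PEP+/+ and all negative, 5 in PEP-/- and all positive. For 51 of 52 genes the red point is above the blue one. These differences are changes in the gap that chose the genes and are shown as a description.

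In the test of genotype by DEX with antigen, edgeR called 0 genes in either fit and DESeq2 0, with 95 and 485 of all genes at an unadjusted p under 0.05 without and with the block. Without antigen, the median DEX response was -0.11 in PEP+/+ and 0.22 in PEP-/-, where the PEP+/+ sets differed in sign, at 0.26 among numbered and -0.39 among lettered samples.

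No single gene passed the test over all treatments either. In the test of genotype by treatment over all 3 treatment terms, 0 of 52 and 0% of all genes were called by edgeR without the block and 0% with it, and 36 and 295 of 13305 genes had an unadjusted p under 0.05. The largest F values without the block were those of Rrn3 (3.06), Wdr75 (2.50) and Fbl (2.05), and with the block that of Gnl3 (6.97).

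The values of the interaction with DEX had 1 sign. The difference between genotypes in the DEX response, PEP-/- minus PEP+/+, averaged over both antigen states, was positive for 52 of 52 genes, from 0.07 for Ddx10 to 0.72 for Utp20, with a median of 0.40. 0% of all genes were called by edgeR in either fit and 0 by DESeq2, with 113 genes at an unadjusted p under 0.05 without the block and 644 with it. The corresponding difference in the antigen response had a median of 0.00 over the 52, with 25 positive and 27 negative, and 0% of all genes were called in either fit (53 and 260 at an unadjusted p under 0.05, and 0 by DESeq2). The genes share samples and move together across libraries, so 52 positive values are not 52 separate observations. They are changes in the gap that chose the genes, the average was chosen after the values were seen, and without PEP+/+ IgE DNP DEX replicate 1 the fit with the block gave a median of 0.35 with 51 positive.

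The gap between genotypes, which chose the genes, was smaller in samples with DEX. The median log2 ratio of PEP-/- to PEP+/+ was -0.77 with IgE alone and -0.85 with antigen added. With DEX it was -0.48, and with both agents -0.37, beside 0.01 to 0.03 over all genes. The number of the 52 below 0 was 52, 52, 49 and 51. From IgE to IgE DEX the ratio was less negative for 50 of the 52, and from IgE DNP to IgE DNP DEX for 51. The choice named no treatment, so whether it leaned on the samples without DEX is not known, and the 4 ratios are given with no test.

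The gap also differed between replicate sets. Among lettered samples it was -0.92 and -0.97 without DEX and -0.39 and -0.44 with it. Among numbered samples it was -0.55 and -0.64 without DEX and -0.49 and -0.28 with it, so that the step from IgE to IgE DEX was 0.05 there. The lettered PEP+/+ IgE sample was at a median of 0.47 on the scale relative to each gene's mean and the numbered one at 0.04.

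Members differed in how much of the gap remained. Grwd1, a large subunit factor, had the widest gap on average, at -1.28, and was at -1.42 after IgE and -0.98 after IgE DNP DEX. Its level was 10.7 and 25.1 CPM after IgE in PEP+/+ and 5.19 and 8.02 CPM in PEP-/-. Gpatch4 went from -1.56 after IgE DNP to -0.63 after IgE DNP DEX. Utp20 went from -1.10 after IgE DNP to -0.06 after IgE DNP DEX, Polr1a from -1.02 to -0.18, Gnl3 from -1.05 to -0.23 and Rrn3 from -0.42 to 0.28. The replicates differed for Utp20 and Rrn3. After IgE DNP DEX, Utp20 was at 14.2 CPM in PEP-/- and 7.81 CPM in PEP+/+ for replicate 1, the PEP+/+ library that stood apart. For replicate 2 it was at 9.42 against 16.6 CPM, and after IgE DNP at 11.5 against 22.6 CPM. Rrn3 after IgE DNP DEX was at 43.1 against 28.3 CPM for replicate 1 and 35.5 against 36.2 CPM for replicate 2. Npm1 and Rrn3 had the smallest gaps on average, at -0.14 and -0.17, and the choice stated no threshold.

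**Figure D5:**
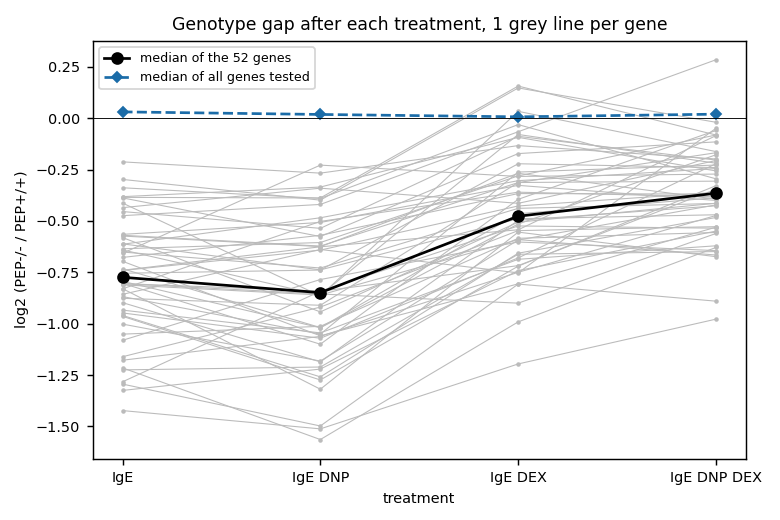
Log2 ratio of PEP-/- to PEP+/+ after each treatment, from the fit without the block, with 1 grey line per gene, the median of the 52 genes in black and the median of all 13305 genes tested in blue. The black line is at -0.77 and -0.85 in the treatments without DEX and at -0.48 and -0.37 in those with it, while the blue line stays between 0.01 and 0.03.

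Other ribosome biogenesis factors were measured as 105 genes outside the 52. With antigen alone 13 were called higher (12.4%) and 0 lower, and with DEX present 9 (8.57%) and 2, beside 9.07% and 7.19% of all genes called higher. Gtpbp4, a GTPase of large subunit assembly, had the highest antigen response without DEX at 1.08 ± 0.22 (adjusted p = 0.00597). Eif6, which keeps immature large subunits from joining, had the highest with DEX at 1.01 ± 0.14 (adjusted p = 0.000716), and Dhx37, a helicase of the small subunit processome, the lowest at -0.71 ± 0.20 (adjusted p = 0.0395). Polr1e, an RNA polymerase I subunit, had the lowest antigen response without DEX at -0.86 ± 0.29 (adjusted p = 0.0644), where the block gave -0.90 (adjusted p = 0.00487). Polr1c, another subunit, went the other way. It was at 33.4 and 33.0 CPM after IgE and 60.3 and 61.7 CPM after IgE DNP in PEP+/+. In PEP-/- it was at 31.9 and 29.6 CPM against 49.1 and 48.0 CPM.

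For DEX, 1 of the 105 was called higher and 0 lower without antigen, beside 5.4% and 3.98% of all genes. With antigen 4 and 1 were called, beside 5.67% and 4.99%. Npm3, a histone chaperone of the nucleophosmin family, rose by 1.89 ± 0.17 without antigen (adjusted p = 3.01e-05) and by 1.85 ± 0.17 with it (adjusted p = 3.89e-05). Mdn1, the large ATPase that remodels large subunit precursors, had -0.93 ± 0.33 with antigen (adjusted p = 0.107), where the block gave -0.96 (adjusted p = 0.00104). In PEP+/+ it went from 37.2 and 49.1 CPM to 7.03 and 22.4 CPM, with 7.03 CPM in PEP+/+ IgE DNP DEX replicate 1. In PEP-/- it went from 14.4 and 16.8 CPM to 11.6 and 13.2 CPM. With the block the counts were 25 higher (23.8%) and 10 lower (9.52%) for antigen alone, beside 18.6% and 19.3% of all genes. They were 26 (24.8%) and 9 (8.57%) for antigen with DEX, beside 18.4% and 19.2%. For DEX alone they were 22 (21%) and 0, beside 12.9% and 13.8%, and for DEX with antigen 17 (16.2%) and 5 (4.76%), beside 15.9% and 17.4%.

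Cytosolic ribosomal protein genes, the products that these factors assemble, were measured as 79 genes. Their medians were 0.21 for antigen alone, 0.19 for DEX alone, 0.37 for DEX with antigen and 0.39 for antigen with DEX, with 78, 78, 79 and 79 of 79 positive. Called genes numbered 0, 0, 1 and 0 without the block and 0, 1, 35 and 37 with it, all higher. Of all genes, 9.07%, 5.4%, 5.67% and 7.19% were called higher without the block and 18.6%, 12.9%, 15.9% and 18.4% with it. Without PEP+/+ IgE DNP DEX replicate 1, the medians were 0.20, 0.18, 0.27 and 0.29, and 13, 16, 11 and 13 genes were called with the block. Rpl10 had the highest value for DEX alone, at 0.44 ± 0.15 (adjusted p = 0.105). Their log2 ratio of PEP-/- to PEP+/+ after IgE had a median of -0.01. Many ribosomal protein genes and Npm1 have near-identical copies in the genome, and reads that aligned to several places were not counted, so these levels are uncertain.

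Of the MYC network, 11 of 12 genes were tested. Myc itself rose with antigen by 1.55 ± 0.25 without DEX (adjusted p = 0.00149) and 1.59 ± 0.25 with it (adjusted p = 0.00192), while its DEX responses were -0.18 ± 0.25 and -0.14 ± 0.25 (adjusted p = 0.843 and 0.816). In PEP+/+ it was at 20.8 and 50.1 CPM with IgE alone, 59.4 and 61.1 CPM with antigen, 36.0 and 31.6 CPM with DEX and 60.0 and 68.5 CPM with both. In PEP-/- it was at 11.5 and 15.9 CPM, 61.4 and 77.7 CPM, 11.9 and 10.7 CPM and 42.9 and 64.6 CPM in the same order. The log2 ratio of PEP-/- to PEP+/+ for Myc was -1.37 and -1.58 in the treatments without antigen (IgE, IgE DEX) and 0.21 and -0.26 in those with it, with no test. Mycn rose with antigen by 2.86 ± 0.29 without DEX and 3.08 ± 0.29 with it (adjusted p = 4.97e-05 and 6.12e-05), and Mxd3, a repressor that competes for MAX, fell by 0.76 ± 0.18 without DEX (adjusted p = 0.0136). Without the block, 3 were called higher and 2 lower for antigen alone, and 3 and 0 for antigen with DEX. For DEX alone 1 and 0 were called, where Mlxip rose by 1.08 ± 0.21 (adjusted p = 0.00759), and for DEX with antigen 0 and 0. Of all genes, 9.07%, 7.19%, 5.4% and 5.67% were called higher in the same order, and 7.58%, 5.42%, 3.98% and 4.99% lower. With the block, DEX with antigen gave Mga (0.65), Mnt (0.51) and Mxd4 (0.30) called higher. Mxi1 (-0.58) and Mlx (-0.39) were called lower, beside 15.9% and 17.4% of all genes. For DEX alone the block added Mga (0.68) as higher and Mxd1 (-0.38) as lower, beside 12.9% and 13.8%. For antigen it added Mxd4 and Mga as lower without DEX, and Mxd3, Mxd4, Mga and Mlx with it, beside 19.3% and 19.2%.

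19 of the 52 genes overlap another gene on the opposite strand, among them Polr1a, Gnl3, Heatr1, Wdr36, Rrp1b and Bysl. The library kit marks strand, but the strand setting of the counting is not given in the sources used here, so reads of such pairs may be mixed.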

How the data were processed

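RNA-seq of 16 BMMC samples was analysed from the counts per gene that the authors deposited as whole numbers. According to the methods and labels, the libraries were made with a TruSeq stranded mRNA kit, aligned with TopHat2 to GRCm38 and counted with HTSeq, where reads with several alignments were left out. Rows without a gene held 29.1% to 49.6% of the reads and were excluded. Genes were filtered with filterByExpr (minimum count of 10), normalised by TMM, fitted as 8 group means and tested with the quasi-likelihood test of edgeR 4.0.16 (R 4.3.3) with Benjamini-Hochberg adjustment over 13305 genes. CPM values are TMM-scaled. SE was taken from the fold change and the F statistic. Deviations of samples with the same label type (digit or letter in the titles) from their group means correlated in all 28 pairs of groups (0.453 to 0.799), so a fit with this replicate block is given beside the main fit. DESeq2 1.42.0, its size factors, no filter and samples left out were alternatives. Leaving out samples in the fits with the block and within a genotype was chosen after seeing the data. Scripts were tested on simulated data. Gene positions and overlaps are from GENCODE M21 and promoters from RefSeq. The 52 genes, the lists and motifs were chosen with earlier results of these data known. Named genes are the 3 highest and 3 lowest of the 52 in each response, the most abundant of each role, the 3 with the largest genotype by treatment F and the extremes of the other lists. Genes called in either fit were added after their values were seen.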

Additional observations from a re-analysis of the deposited data

How the results depend on the processing

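With the replicate block, calls over all genes numbered 5042 for antigen without DEX, 3548 for DEX without antigen, 4429 for DEX with antigen, 5007 for antigen with DEX and 209 for their interaction, and calls among the 52 genes were 13 higher and 0 lower, 3 and 3, 4 and 6, and 6 and 2 for the 4 responses. DESeq2 called 5 of the 52 higher for antigen alone, where it called 2700 of all genes in either direction. It called 2 of the 52 higher for DEX with antigen, and 2 higher and 1 lower for antigen with DEX. For the interaction it called 101 genes in all. Without the filter, 2 were called higher and 1 lower for DEX with antigen, 1 lower for antigen with DEX, 107 genes for the interaction and 24 genes, 0 of the 52, for genotype by treatment, and Utp4 and Wdr36 lost their antigen calls. The median over the 52 was 0.30 among numbered samples for antigen alone, and the gap after IgE DEX was -0.39 among lettered samples. The sign of the median differed between numbered and lettered samples for DEX without antigen (0.34 and -0.13), antigen with DEX (-0.01 and 0.15) and the interaction (-0.32 and 0.08). The cause was not tested. Of the 37 responses of single genes called in either fit, 7 were called without the block. DESeq2 size factors in that fit changed no call among the 37, but the other 30 had no call to lose there. With the block, these size factors gave 14 of the 52 genes called higher for antigen alone, against 13. The direction of the 37 responses held under each alternative.

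Leaving out each sample in turn, members called higher ranged from 0 to 3 for antigen alone, 0 to 3 for DEX alone, 0 to 2 for DEX with antigen and 0 to 1 for antigen with DEX, members called lower from 0 to 0, 0 to 0, 0 to 1 and 0 to 1, and all genes called from 1390 to 2251, 845 to 1269, 852 to 1317 and 927 to 1604. For the interaction the 52 gave 0 and all genes 12 to 27, and for genotype by treatment 0 and 0. A left-out sample leaves its group with 1 sample, which is taken to vary like the other groups. With the block, the ranges were 6 to 21 higher and 0 to 1 lower for antigen alone (6 without PEP+/+ IgE replicate 1, 21 without PEP+/+ IgE replicate 2), 3 to 7 and 0 to 4 for DEX alone (7 higher without PEP+/+ IgE replicate 2, 0 lower without PEP-/- IgE replicate 1), 3 to 6 and 2 to 9 for DEX with antigen (2 lower without PEP+/+ IgE DNP replicate 1, 9 without PEP+/+ IgE DNP DEX replicate 2), and 2 to 12 and 0 to 3 for antigen with DEX (2 higher without PEP+/+ IgE DEX replicate 2, 12 without PEP+/+ IgE DNP DEX replicate 2, 0 lower without PEP-/- IgE DNP DEX replicate 2). All genes called with the block ranged from 3759 to 6127, 2617 to 4688, 3189 to 5884 and 3510 to 6286. The interaction with the block ranged from 116 to 1879 genes and 0 to 5 of the 52 lower, and genotype by treatment from 0 to 5 genes, 0 of the 52. Without the block, Rrp12 lost its antigen call in 4 of 16 such fits, Utp4 in 13 and Wdr36 in 14 (highest adjusted p by edgeR 0.0663, 0.170 and 0.182), Polr1a its DEX call in 1 without antigen and 6 with it, Nob1 in 5 and Rrp12 its antigen call under DEX in 6. With the block, 6 of 13 calls for antigen alone, 3 of 6 for DEX alone, 5 of 10 for DEX with antigen and 2 of 8 for antigen with DEX were kept in all 16 fits. For DEX with antigen in single genotypes with the block, members ranged from 0 to 1 higher and 1 to 11 lower in PEP+/+ (1 lower without PEP+/+ IgE DNP replicate 1, 11 without PEP+/+ IgE DNP DEX replicate 2) and from 2 to 6 higher and 0 to 0 lower in PEP-/- (2 without PEP-/- IgE DNP DEX replicate 1), and all genes from 1129 to 4650 and from 1069 to 3605.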
